A study of Mus musculus with 2 samples.

Results

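The genes described here are 8 long noncoding RNAs, transcripts that are not read into protein: Malat1, Neat1, Meg3, Snhg11, Miat, Rian, Kcnq1ot1 and Gm26917. They were taken by symbol from the 32285 genes of the count tables, and were chosen by their levels by cell class, by depth and by mitochondrial share in these same data, so each level, share and fold of theirs is a description and carries no p-value. RNA was counted per cell in 2 10x Genomics libraries of dissociated striatum, replicates 1 and 2 of 1 group (libraries 1 and 2 below). The mice were untreated, 8 to 10 weeks old by the labels and of the C57/Bl6J strain by 1 label and C57BL/6NTac by the protocol (the design text and the study's methods give other ages), and the cells are labelled as glia enriched. The number of mice behind each library is not given in the sources used here, so the spread between the libraries may be technical. With 1 group, the comparisons are between cell classes.

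After removal of cells with few genes and of doublets, 6783 and 5212 cells were analysed in libraries 1 and 2. The deposited tables held 44597660 and 37982720 unique molecular identifiers (UMIs, 1 per captured RNA molecule), with a median of 3852 and 5375 per barcode, and 9 barcodes were shared by the libraries. The cells fell into 13 clusters, of which 12 were named by markers and held 11899 cells in 9 classes: neuron-like, neuroblast-like, oligodendrocyte precursor (OPC)-like, oligodendrocyte-like, astrocyte-like, mural-like, endothelial-like, macrophage-like and microglia-like. Every marker of each class was higher in that class than in any sum of another class. These 8 and 65 other long noncoding RNAs were left out of the clustering, so none of them defined a class. The classes held from 94 and 76 cells (macrophage-like) to 1404 and 1047 (astrocyte-like) in libraries 1 and 2, with 382 and 260 neuron-like cells. The neuroblast-like class also held cycling cells, and the remaining 96 erythroid-like cells were not used.

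Long noncoding RNAs act at several places in the cell. Malat1 is an abundant RNA of nuclear speckles, the bodies that store splicing factors, and Neat1 is the scaffold of paraspeckles, nuclear bodies built around it with RNA-binding proteins. Meg3 and Rian are made from the maternal copy of the imprinted Dlk1-Dio3 region, and Kcnq1ot1 is made from the paternal copy of the Kcnq1 region, where it lies antisense to Kcnq1 and silences neighbouring genes in cis. Snhg11 hosts small nucleolar RNAs and is known from neurons, Miat is a nuclear RNA known from neural progenitors and the retina, and no role was assumed for Gm26917. Nuclear RNAs are also read as a sign of how much of a captured cell's RNA came from its nucleus.

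In the GENCODE M21 annotation of GRCm38, Malat1 (chr19:5795690-5802672, minus strand) and Neat1 (chr19:5824708-5845478, minus strand) are neighbours 22035 bases apart. Meg3 (chr12:109541001-109571726, plus strand) and Rian (chr12:109603940-109661716, plus strand) lie 32213 bases apart in the same orientation. Kcnq1ot1 (chr7:143203458-143296549, minus strand) is annotated as a single exon of 93092 bases, inside the span of Kcnq1 on the other strand. Miat (chr5:112213228-112229395, minus strand) overlaps the antisense gene Gm26953, which was also counted. Snhg11 (chr2:158375638-158386145, plus strand) has the gene type protein_coding in that annotation, and its span holds 2 small nucleolar RNA genes; the span of Rian holds 13. Gm26917 (chr17:39843013-39846341, plus strand) lies 616 bases from Gm42418, a gene known to take up ribosomal RNA reads. Whether Gm26917 takes up such reads too was not tested. Whether counting used strand is not given in the sources used here, so reads of Kcnq1ot1 and Kcnq1, or of Miat and Gm26953, may not be separable.

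The kits named in the labels prime at the 3' end, where the primer pairs with runs of A, and several of these RNAs hold such a run inside the transcript. The longest run in each annotated transcript is shown for the 4 genes with a run of 12 or more, read from the GENCODE transcript sequences with the run in capitals:
Malat1-201: cctagctttAAAAAAAAAAAAgcaaaagac
Meg3-209: caagaccAAAAAAAAAAAAAAAAcaaaaac
Rian-201: aattgctcAAAAAAAAAAAAAAAccattga
Kcnq1ot1-201: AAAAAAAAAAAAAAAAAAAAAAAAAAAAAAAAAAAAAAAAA
The median longest run over 55341 genes was 5. The run of 12 in Malat1 ends 298 bases before the transcript's end, and 5.61% of genes had a run as long. The run of 16 in Meg3 is matched by 2.18% of genes, that of 15 in Rian by 2.77% and that of 41 in Kcnq1ot1 by 0.0253%. These shares are over genes of all lengths, and length was not matched. The transcripts have 6983 bases in Malat1, 14548 in Meg3, 8089 in Rian and 93092 in Kcnq1ot1. Kcnq1ot1 holds 10 runs of at least 10, and Meg3 holds 6. The longest runs in Neat1, Snhg11, Miat and Gm26917 were 7, 8, 4 and 4. The share of UMIs primed at an inner run was not tested.

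Meg3, Rian and Snhg11 were highest in neuron-like cells, at 8.48-fold, 9.20-fold and 20.9-fold the next class on the means. Their promoters (250 bases before to 50 after the start, RefSeq, GRCm38.p6, plus strand) are shown. Kcnq1ot1 and, on the mean, Malat1 were also highest there, at 1.32-fold and 1.07-fold the next class, and are described without their sequence. For Meg3 and Rian the next class was neuroblast-like, which also held cycling cells, and the folds over its other cells alone were not computed. RefSeq has 2 Meg3 entries, of which the first is printed. Capitals mark matches, on either strand, to TGACGTCA (the cyclic AMP response element), to CCAAT (the CCAAT box), to TATAAA (the TATA box) and to GGGCGG (the GC box).
Meg3, chr12:109540746-109541045: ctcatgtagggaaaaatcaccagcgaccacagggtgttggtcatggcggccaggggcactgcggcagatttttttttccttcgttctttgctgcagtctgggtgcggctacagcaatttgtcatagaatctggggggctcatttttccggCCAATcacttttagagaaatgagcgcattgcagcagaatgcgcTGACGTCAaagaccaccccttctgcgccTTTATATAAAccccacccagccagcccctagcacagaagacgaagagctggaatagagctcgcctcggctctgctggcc
Rian, chr12:109603695-109603994: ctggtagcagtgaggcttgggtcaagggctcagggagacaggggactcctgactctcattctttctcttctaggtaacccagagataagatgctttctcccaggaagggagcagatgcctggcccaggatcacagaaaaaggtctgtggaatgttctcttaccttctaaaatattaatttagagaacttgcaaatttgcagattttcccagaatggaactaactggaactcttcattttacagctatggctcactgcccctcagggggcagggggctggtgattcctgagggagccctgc
Snhg11, chr2:158375463-158375762: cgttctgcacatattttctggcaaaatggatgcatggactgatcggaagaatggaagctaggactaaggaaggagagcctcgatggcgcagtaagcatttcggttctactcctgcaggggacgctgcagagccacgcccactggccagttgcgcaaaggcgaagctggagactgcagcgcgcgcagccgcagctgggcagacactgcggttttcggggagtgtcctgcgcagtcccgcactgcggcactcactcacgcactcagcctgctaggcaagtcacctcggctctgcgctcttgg
The first Meg3 promoter held TGACGTCA, the site of cyclic AMP response element binding proteins, 57 bases before the start, CCAAT 100 bases before it, and overlapping TATAAA matches on both strands. TGACGTCA was in 1.79% of 32851 promoters, CCAAT in 37.4%, TATAAA in 13.6% and GGGCGG in 35.7%. The second Meg3 entry (chr12:109545148-109545447), the Rian and Snhg11 promoters, and that of Malat1, held none of these motifs. Kcnq1ot1 (chr7:143296498-143296797, minus strand) held 3 CCAAT matches, a motif known from its promoter, and Miat held 1 GGGCGG match. A match describes the letters only.

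Malat1 was the most abundant of all genes in both libraries. It gave 1810901 of the UMIs in library 1 and 1347714 in library 2, which is 4.21% and 3.76% of all UMIs in the analysed cells. The other 7 genes together reached far less: Meg3 stood at 542 and 532 counts per 1000000 UMIs (CPM), ranks 210 and 206, and Miat, the lowest, at 25.4 and 15.6 CPM. Levels by class are given as CPM of the summed UMIs of a library and class, so a level of 1 gene can be compared between classes. A 3'-end count is not scaled by length, and levels of different genes were not ranked further.

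**Figure D1:**
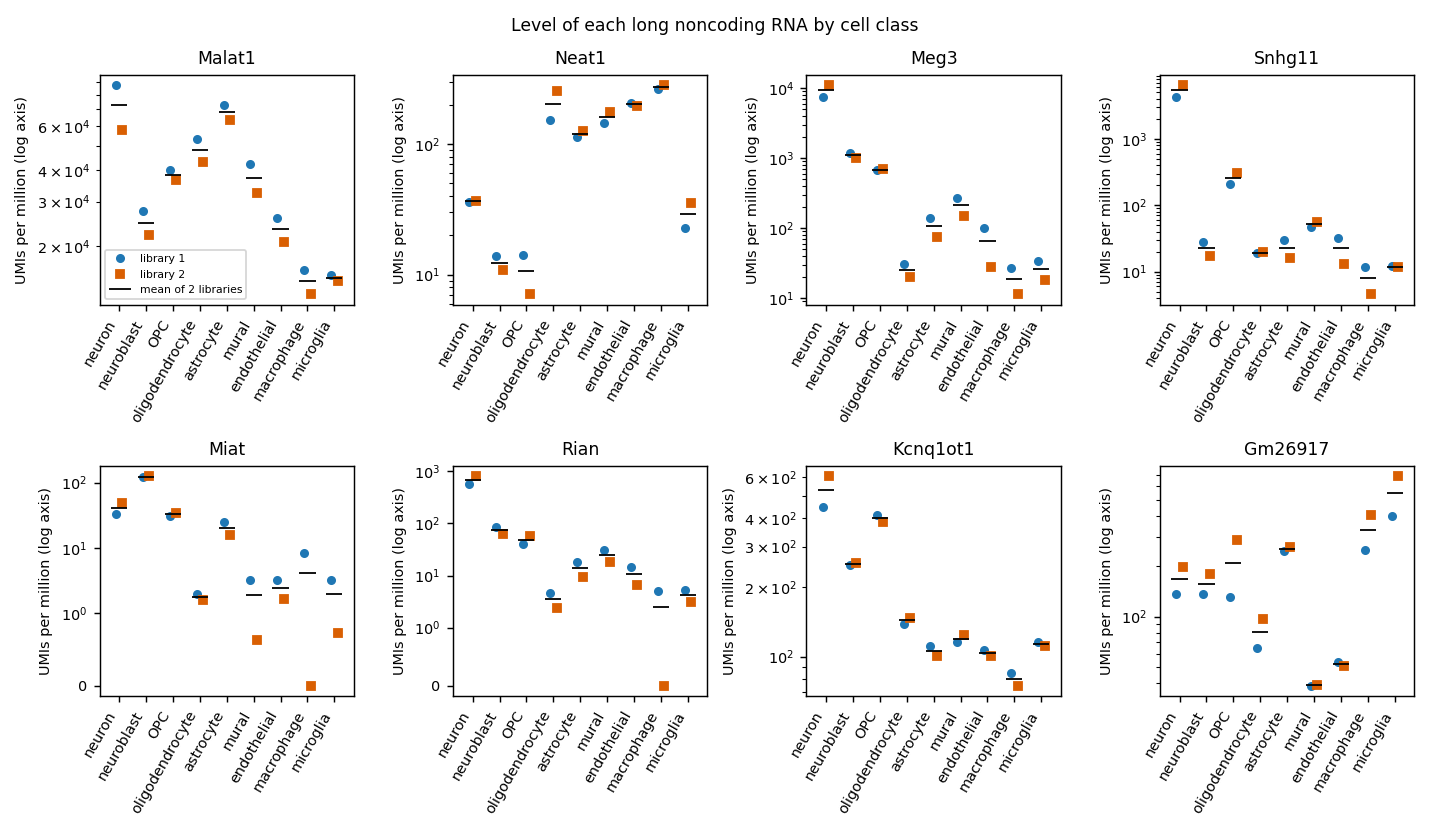
Level of each of the 8 RNAs in the 9 cell classes, in CPM (UMIs scaled to 1000000) on a log axis, linear below 1 for Miat and Rian, where 1 sum is at 0. Circles are library 1, squares library 2 and lines their mean; Meg3, Snhg11 and Rian peak in neuron-like cells, Miat in neuroblast-like cells, and Malat1 spans 12807 to 87602 over all sums.

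Malat1 was high in every class and differed 5.05-fold between the highest and lowest class means. In neuron-like cells it stood at 87602 and 58134 CPM in libraries 1 and 2, and in astrocyte-like cells at 72787 and 63367 CPM. These 2 classes overlapped, so their order is not resolved. Oligodendrocyte-like cells followed at 53503 and 43154 CPM, below both libraries of the astrocyte-like class. OPC-like cells (40265 and 36666 CPM) and mural-like cells (42221 and 32355 CPM) overlapped. Neuroblast-like cells (27485 and 22024 CPM) and endothelial-like cells (25862 and 20676 CPM) overlapped as well, below the mural-like class in both libraries. Within each library the neuroblast-like value was the higher of these. The lowest levels were in microglia-like cells, at 15238 and 14440 CPM, and macrophage-like cells, at 16079 and 12807 CPM, which overlapped each other and no other class. Library 1 was above library 2 in all 9 classes. When mitochondrial UMIs were taken out of the total, the order of the class means stayed the same, with 8.19% of nuclear-encoded UMIs in neuron-like cells and 1.51% in macrophage-like cells (means of 2 libraries).

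Neat1 had another order. It was highest in macrophage-like cells, at 265 and 284 CPM, above every other class in both libraries. Oligodendrocyte-like cells had 153 and 254 CPM and endothelial-like cells 206 and 197 CPM, so the oligodendrocyte-like range enclosed the endothelial-like one. Mural-like cells followed with 145 and 176 CPM and astrocyte-like cells with 113 and 126 CPM. Below a gap came neuron-like cells at 36.3 and 36.7 CPM and microglia-like cells at 22.6 and 35.7 CPM. Neuroblast-like cells (13.8 and 10.9 CPM) and OPC-like cells (14.2 and 7.06 CPM) were lowest and overlapped. The 2 myeloid classes, both lowest in Malat1, thus stood far apart for Neat1. Macrophage-like cells had 60.7 and 45.2 Malat1 UMIs per Neat1 UMI, microglia-like cells 675 and 405, and OPC-like cells, the highest, 2845 and 5191. At an equal depth of 1000 UMIs per cell, a Neat1 UMI was found in 19.5% and 23.0% of macrophage-like cells and in 2.26% and 3.31% of microglia-like cells.

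Meg3 and Rian, the imprinted pair, were highest in neuron-like cells and moved together over the classes. Meg3 stood at 7534 and 11095 CPM in neuron-like cells, at 1191 and 1007 CPM in neuroblast-like cells and at 671 and 705 CPM in OPC-like cells, and these 3 classes did not overlap. Mural-like cells had 270 and 151 CPM and astrocyte-like cells 141 and 75.1 CPM. The levels in the other 4 classes lay between 11.3 and 101 CPM, with library 1 above library 2 in each. Rian stood at 577 and 800 CPM in neuron-like cells, 86.2 and 63.5 CPM in neuroblast-like cells and 39.8 and 56.9 CPM in OPC-like cells, in the same order. In the 76 macrophage-like cells of library 2 no Rian UMI was found, which allows up to 6.80 CPM. The number of Meg3 UMIs per Rian UMI was 13.1 and 13.9 in neuron-like cells, 13.8 and 15.9 in neuroblast-like cells and 16.8 and 12.4 in OPC-like cells.

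Thinned to 1000 UMIs, 71.0% and 82.2% of neuron-like cells had a Meg3 UMI, against 53.0% and 44.6% of neuroblast-like cells and 47.7% and 44.2% of OPC-like cells. Microglia-like cells, which stand here as the background, had one in 2.95% and 2.28%. Mural-like cells lay between, at 23.7% and 19.3%. For Rian the shares were 43.5% and 45.7% of neuron-like cells and at most 0.49% of microglia-like cells. Without thinning, neuron-like cells, with median depths of 2502 and 2639 UMIs, had a Meg3 UMI in 59.7% and 72.7%. Thinning left out 1016 and 472 cells of the libraries, those under 1000 UMIs.

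Snhg11 had the steepest pattern of the 8 genes, with 4268 and 6484 CPM in neuron-like cells. The next class, OPC-like cells, had 211 and 304 CPM, 20.9-fold lower on the means. Mural-like cells followed at 47.2 and 55.7 CPM, and the 6 other classes lay between 4.54 and 32.1 CPM. Neuroblast-like cells, second for Meg3 and Rian, were at only 27.7 and 17.4 CPM and so at the level of astrocyte-like and endothelial-like cells, which they overlapped. At 1000 UMIs per cell, Snhg11 was found in 68.4% and 79.8% of neuron-like cells, in 20.2% and 22.4% of OPC-like cells and in 1.96% and 0.72% of microglia-like cells.

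Miat was the only one of the 8 genes with its highest level in neuroblast-like cells, at 121 and 125 CPM. Neuron-like cells (33.2 and 49.5 CPM) and OPC-like cells (30.9 and 34.4 CPM) overlapped, with neuron-like cells above within each library. Astrocyte-like cells had 24.7 and 15.9 CPM. In the other 5 classes it was at most 8.33 CPM, with no UMI in macrophage-like cells of library 2. Thinned cells with a Miat UMI made up 12.98% and 14.6% of the neuroblast-like class, and at most 3.58% of any other. Over the 18 sums of library and class, Miat was most like Crmp1, which encodes a protein of growing axons, Nol4 and Sept3 (Pearson's r of 0.98, 0.97 and 0.97).

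Kcnq1ot1 was found in all classes at levels closer together than those of Meg3. Neuron-like cells had 447 and 606 CPM, OPC-like cells 412 and 385 CPM and neuroblast-like cells 250 and 255 CPM, with no overlap between them. The 6 other classes lay between 74.9 and 148 CPM. Of these, mural-like, microglia-like, astrocyte-like and endothelial-like cells lay within 101 to 124 CPM, and neighbours in that order overlapped. Kcnq1, on the other strand of the same stretch, was at 10.7 and 12.6 CPM in endothelial-like cells, at 1.6 and 1.9 CPM in mural-like cells and at most 0.21 CPM elsewhere, so its pattern was not that of Kcnq1ot1.

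Gm26917 was highest in microglia-like cells, at 401 and 689 CPM, followed by macrophage-like cells at 250 and 406 CPM. The ranges of these classes over the libraries just overlapped, with microglia-like cells above within each library. Astrocyte-like cells had 245 and 262 CPM, OPC-like cells 131 and 288 CPM, neuron-like cells 136 and 197 CPM and neuroblast-like cells 136 and 179 CPM, each overlapping the next. Oligodendrocyte-like cells (64.8 and 97.2 CPM), endothelial-like cells (53.8 and 50.6 CPM) and mural-like cells (38.6 and 38.8 CPM) did not overlap. Library 2 was above library 1 in 8 of the 9 classes, the reverse of Malat1. Its neighbour Gm42418 was also higher in library 2, at 6518 and 11298 CPM in microglia-like cells, its highest class, and at 2015 and 3662 CPM in neuroblast-like cells, its lowest. Gm42418 was 3696 and 8299 CPM in endothelial-like cells, where Gm26917 was near its lowest, so the neighbours ranked the classes differently. The share of ribosomal RNA reads in the counts of either gene was not tested.

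Malat1 was then set against the depth of the cells and the share of their UMIs that came from mitochondrial genes, with levels as counts per 1000000 nuclear-encoded UMIs (nuclear CPM). In oligodendrocyte-like cells it rose with the mitochondrial share: cells under 5% had 47028 and 41966, cells of 10 to 20% had 163563 and 75306, and cells of 20 to 40% had 186917 and 145893. Neuroblast-like cells went from 21072 and 16301 under 5% to 99429 and 72158 at 10 to 20%, and OPC-like cells from 35935 and 36313 to 87196 and 79987 over the same ranges. Both classes were thus higher in the cells with more mitochondrial RNA, in both libraries. The neuroblast-like class also held cycling cells, so its ranges may differ in the kind of cell. Astrocyte-like cells had 79881 and 74350 under 5% and 110943 and 104424 at 20 to 40%, with lower values of 68116 and 64085 at 5 to 10%. In microglia-like cells the libraries parted, with 15319 and 16586 under 5% and 39873 and 14258 at 10 to 20%. Neuron-like cells had 91141 and 55327 under 5%, 114102 and 93954 at 10 to 20% and 57150 and 82661 at 20 to 40%, so the libraries also parted there.

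**Figure D2:**
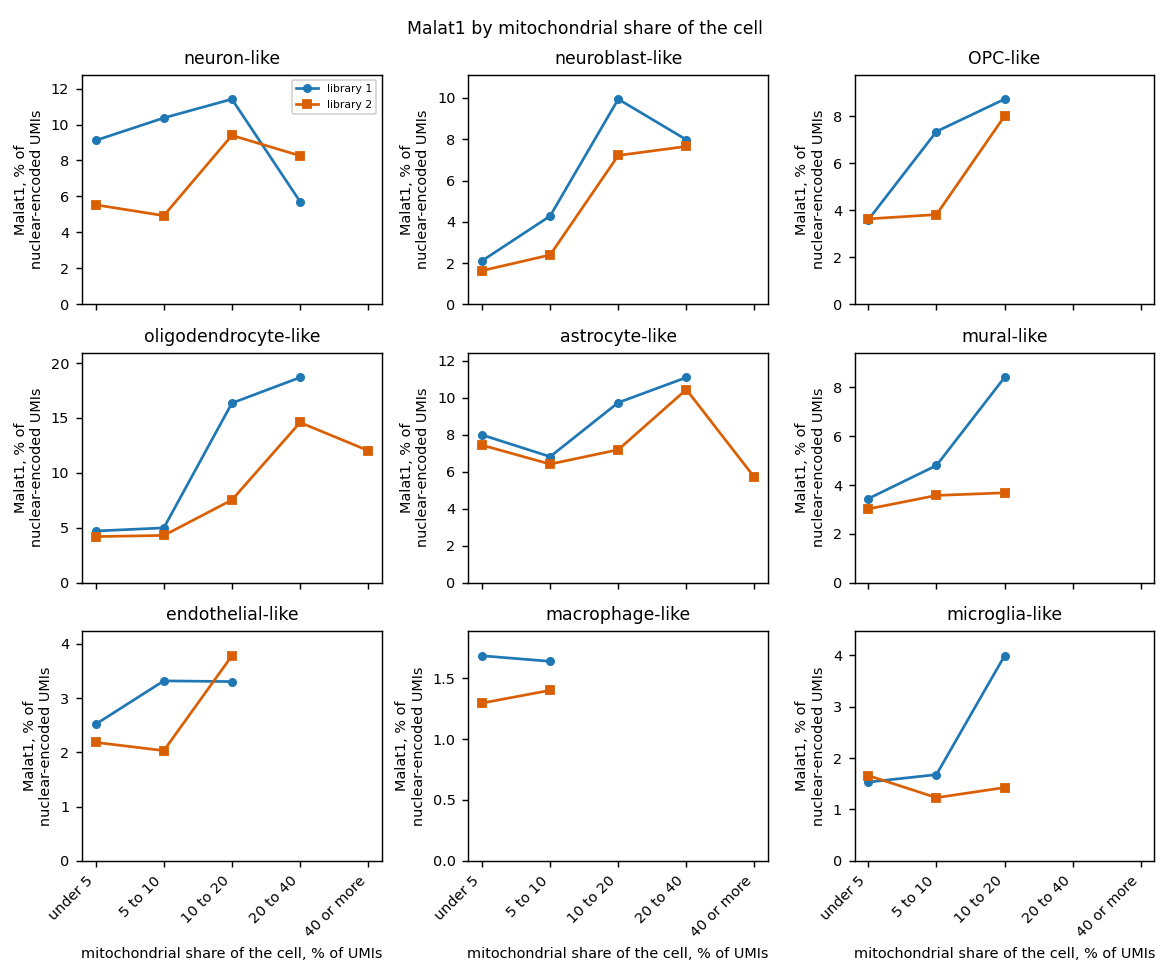
Malat1 as a percent of nuclear-encoded UMIs (y axis) by range of mitochondrial share (x axis), 1 panel per class, for ranges with at least 20 cells in a library. In oligodendrocyte-like cells both libraries rise to 18.7% and 14.6% at 20 to 40% mitochondrial UMIs and library 2 is lower again in its 30 cells of 40% or more.

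Depth moved with the mitochondrial share in most classes: oligodendrocyte-like cells had a median of 17075 and 15136 UMIs under 5% mitochondrial UMIs and 2771 and 2730 at 20 to 40%. In neuron-like cells it did not, with 2700 and 2458 UMIs against 3314 and 2520. The part of depth in the Malat1 values was not tested. By depth, Malat1 in oligodendrocyte-like cells peaked at 2000 to 4000 UMIs, with 196802 and 128820 nuclear CPM, and was 46059 and 43097 in cells of 8000 or more. In mural-like cells it fell from 165881 and 136983 at 1000 to 2000 UMIs to 30040 and 26200 at 8000 or more. Neuron-like cells went the other way at the low end, with 13643 and 20819 under 1000 UMIs and 130484 and 104062 at 4000 to 8000. Astrocyte-like cells had 20028 and 52268 under 1000 UMIs, 127919 and 98319 at 2000 to 4000 and 66362 and 60663 at 8000 or more. No single direction with depth held over the classes.

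The other genes had their own patterns. Meg3 in neuroblast-like cells was 883 and 665 nuclear CPM under 5% mitochondrial UMIs and 4557 and 3566 at 10 to 20%. By depth it was 5895 and 6654 under 1000 UMIs and 377 and 80.3 at 8000 or more, and this class also holds the cycling cells. In neuron-like cells Meg3 was 9692 and 12500 under 5% and 8607 and 13675 at 10 to 20%, a smaller change than between the libraries. Neat1 in oligodendrocyte-like cells was 133 and 160 under 5% and 410 and 525 at 20 to 40%. In neuron-like cells Neat1 was 63.8 and 48.1 under 5% and 19.1 and 13.2 at 10 to 20%. That direction is opposite but rests on few counts, as all neuron-like cells held 58 and 46 Neat1 UMIs, in 36 and 12 cells. Gm26917 in astrocyte-like cells was 251 and 310 under 5% and 602 and 871 at 20 to 40%. Kcnq1ot1 in neuroblast-like cells was 228 and 209 under 5% and 432 and 497 at 10 to 20%.

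The astrocyte-like, microglia-like and oligodendrocyte-like classes were each made of a deep and a shallow cluster. The shallow oligodendrocyte-like cluster (713 cells, median 2514 and 2541 UMIs, 22.3% mitochondrial) had 149058 and 102082 CPM of Malat1, and the deep one (1672 cells, median 16384 and 13469 UMIs, 5.54% mitochondrial) had 43842 and 40311 CPM. Neat1 in the same clusters was 372 and 427 CPM against 130 and 245 CPM. In the shallow astrocyte-like cluster (1699 cells, 9.77% mitochondrial) Malat1 was 87187 and 73239 CPM, against 63851 and 59483 CPM in the deep one (752 cells, 5.48%). Gm26917 in these astrocyte-like clusters was 386 and 459 CPM against 158 and 184 CPM, and Kcnq1ot1 136 and 152 CPM against 96.0 and 80.3 CPM. In microglia-like cells Malat1 was 20886 and 11766 CPM in the shallow cluster and 14884 and 14590 CPM in the deep one, which is no common direction. At a resolution of 0.32 in the clustering, the deep astrocyte-like cluster came out with 605 cells beside a cluster of 149 ependymal-like cells, and the deep oligodendrocyte-like cluster with 1400 cells beside an unnamed cluster of 272 led by genes such as Bmp4 and Gpr17. The same resolution gave 1059 neuroblast-like cells (median 1862 UMIs) apart from 449 progenitor-like cells (median 10836 UMIs).

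Sums hide how Malat1 was spread over single cells. In the shallow astrocyte-like cluster the 25th to 75th percentile of cells ran from 0.562% to 13.4% of nuclear-encoded UMIs in library 1 and from 0.329% to 12.6% in library 2, with medians of 1.86% and 7.25%. Of its cells, 236 (22.0%) and 176 (28.0%) had under 0.5% Malat1. The deep astrocyte-like cluster ran from 3.27% to 9.73% and from 4.15% to 8.60%, with 22 (6.61%) and 4 (0.955%) such cells. The shallow microglia-like cluster held 106 (35.1%) and 121 (62.1%) cells under 0.5%, against 38 (4.67%) and 27 (3.26%) in the deep one. Neuron-like cells were also broad, from 0.621% to 12.5% and from 0.459% to 11.2%. The shallow oligodendrocyte-like cluster had few cells under 0.5%, at 1.91% and 5.81%, and medians of 18.2% and 14.2%.

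**Figure D3:**
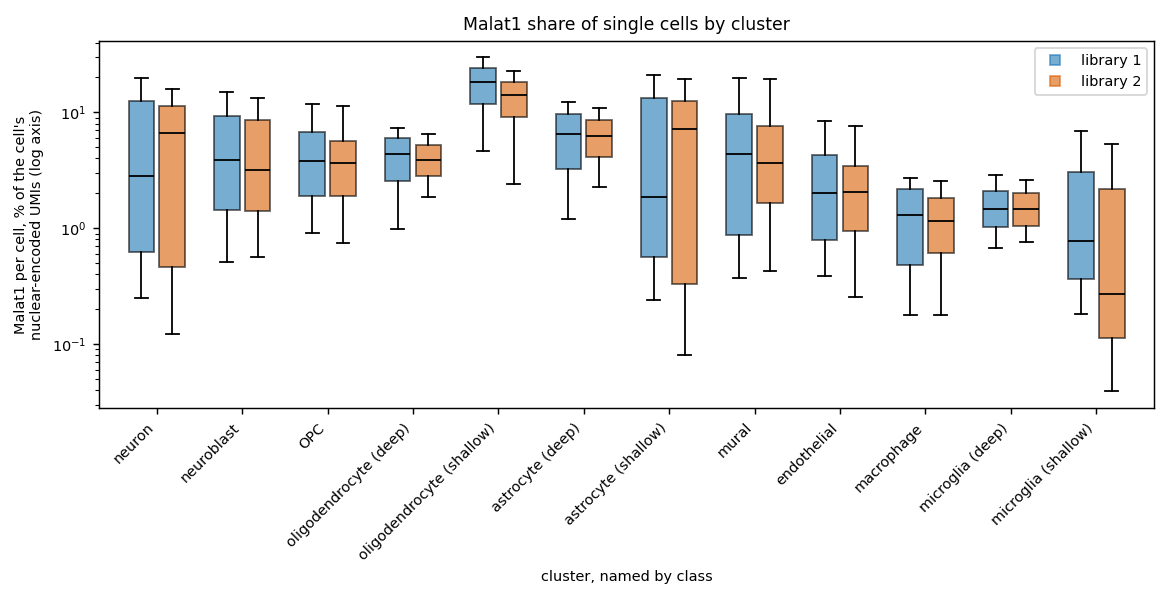
Malat1 as a percent of a cell's nuclear-encoded UMIs (log axis) by cluster and library; boxes span the 25th to 75th percentile, lines mark medians and whiskers the 10th to 90th percentile. The shallow astrocyte-like cluster runs from 0.562% to 13.4% in library 1, a far wider box than the deep one.

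The other 7 genes were then compared between cells of low and of high Malat1 share, under 0.5% and 10% or more of nuclear-encoded UMIs. These limits were chosen after the values were seen, and levels here are counts per 1000000 nuclear-encoded UMIs other than Malat1. In the shallow astrocyte-like cluster, Kcnq1ot1 was 7.94 and 0 in the low cells and 269 and 340 in the high cells. Neat1 was 15.9 and 15.2 against 279 and 267, and Gm26917 was 10.6 and 7.59 against 835 and 873. All 3 were thus near 0 where Malat1 was low. The summed astrocyte markers were 19519 and 23202 in the low cells and 18878 and 19733 in the high cells, and the median mitochondrial share was 8.82% and 11.4% against 9.17% and 12.5%. The genes of ribosomal proteins were higher in the low cells, at 57516 and 44566 against 31226 and 20396. Over the whole astrocyte-like class, Snhg11 (25.8 and 33.1 against 31.8 and 18.6) and Rian (9.94 and 13.2 against 20.9 and 10.6) had no common direction. Meg3 was 57.7 and 29.8 against 96.3 and 39.9, and peaked between, at 247 (5 to 10%) in library 1 and 352 (0.5 to 2%) in library 2. Miat was 0 and 6.61 against 37.7 and 31.9.

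In neuron-like cells the order of low below high held for more genes. Meg3 was 318 and 2410 in the 83 and 68 cells of low Malat1 and 13353 and 18385 in the 124 and 80 cells of high Malat1. Snhg11 was 134 and 1060 against 8544 and 13499, and Rian 214 and 256 against 999 and 1518. Here the summed neuron markers also differed, at 4486 and 6126 against 9107 and 8389, as did the markers of the other classes, at 12245 and 5725 against 6595 and 2470. The low cells were shallower, with medians of 1876 and 1066 UMIs against 4706 and 3848, and more mitochondrial, at 15.6% and 22.8% against 8.17% and 12.9%. The part of these in the levels was not tested.

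In endothelial-like cells Neat1 was 47.1 and 59.5 in the low cells and 1056 and 728 in the high cells, and Kcnq1ot1 was 13.8 and 10.5 against 680 and 381. Markers of other classes were also higher in those high cells, at 12702 and 7974 against 3672 and 2456. In mural-like cells Neat1 was 108 and 135 against 325 and 453. Miat in neuroblast-like cells was 181 and 169 in the low cells and 200 and 320 in the high cells, where Meg3 went from 170 and 0 to 7225 and 8657.

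**Figure D4:**
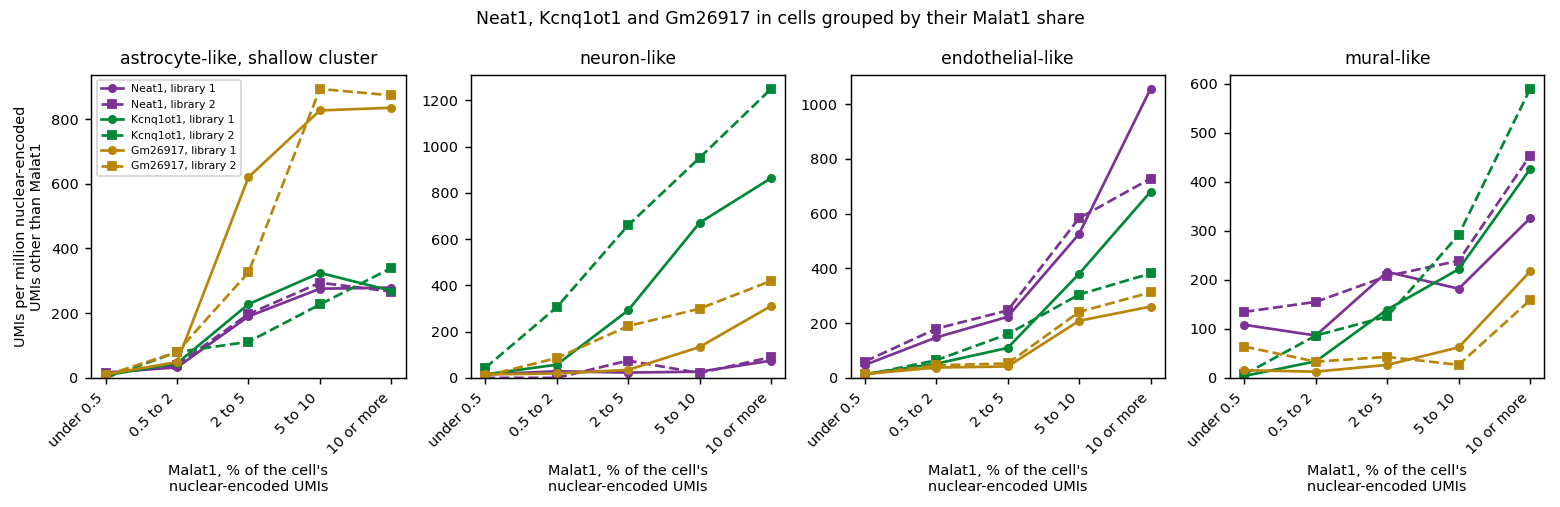
Neat1, Kcnq1ot1 and Gm26917, in counts per 1000000 nuclear-encoded UMIs other than Malat1 (y axis), by the cell's Malat1 share (x axis) in the shallow astrocyte-like cluster and in neuron-like, endothelial-like and mural-like cells, for both libraries. In the shallow astrocyte-like cluster Gm26917 goes from 10.6 and 7.59 in the lowest range to 835 and 873 in the highest.

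Over the 18 sums, Meg3 and Rian were the most alike pair of the 8 genes (Pearson's r of 0.98 on log2(CPM + 1)), followed by Meg3 with Kcnq1ot1 (0.89). Malat1 and Neat1, neighbours on the chromosome, were unlike (r of -0.04), and Neat1 with Kcnq1ot1 was lowest (-0.73). Classes of 1 library share its preparation, so these values are descriptive. Of 8052 genes compared, Meg3 was most like Gap43 (0.96), a protein of axon growth, and Snhg11 was most like the sodium channel gene Scn2a (0.98). Rian was most like Gnl1 (0.96), Kcnq1ot1 like Lrrtm4 (0.97), a synaptic adhesion protein, and Malat1 like Cend1 (0.94) and Vamp2 (0.94), a protein of synaptic vesicles. Neat1 was most like Anxa5 (0.92), and Gm26917 like Taz (0.90).

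The neuron-like class was also compared with the mean of the other 8 classes in a model fitted across all 15074 tested genes (edgeR, quasi-likelihood, p-values adjusted by Benjamini and Hochberg). On the log2 scale, with standard errors and without a test, Snhg11 was 7.31 ± 0.17 higher, Meg3 6.27 ± 0.19 and Rian 5.51 ± 0.19. Miat was 2.18 ± 0.31 higher, Kcnq1ot1 1.56 ± 0.10 and Malat1 0.97 ± 0.09. The standard errors come from the model and do not give the spread between the libraries. Plain differences of log2(CPM + 1) in libraries 1 and 2 were 7.08 and 8.09 for Snhg11, 5.82 and 7.18 for Meg3 and 5.08 and 6.37 for Rian. Neat1 differed by -1.31 ± 0.23, which became 0.49 when the cells under 20% mitochondrial UMIs were clustered anew. The neuron-like cluster then held 905 cells (684 in library 1) in place of 642 (382), with ependymal markers second, so it was not the same set of cells. Gm26917 differed by -0.16 ± 0.17, and its sign depended on the scaling.

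Of 65 other long noncoding RNAs listed, 52 could be tested. In neuron-like cells 26 were higher, 4 were lower and 22 did not pass, where 26.2% of all tested genes were higher and 29.3% lower. Their median log2 difference was 0.38, against -0.16 for all genes. With library sizes alone as the scaling, chosen for comparison, 32 were higher and 3 lower, against 33.5% and 18.99% of all genes. Mirg, a microRNA host gene of the same imprinted region as Meg3 and Rian, was higher by 6.67 ± 0.31 (edgeR, adjusted p = 3.0e-11), at 101 and 106 CPM. The largest difference was that of 9530059O14Rik (7.44 ± 0.21, adjusted p = 1.5e-13), and Mir124a-1hg, which hosts the neuronal microRNA miR-124, and Cdr1os were higher by 5.15 and 5.07. The 4 lower genes were Gm42418 (-0.95), Snhg1 (-0.84), AY036118 (-0.82) and Zfas1 (-0.38).

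In neuroblast-like cells, where Miat peaked, 32 of the 52 were higher and 7 lower, where 30.2% of all tested genes were higher and 28.5% lower. Library sizes alone gave 34 and 6, against 34.8% and 24.7% of all tested genes. Dlx6os1, antisense to a transcription factor gene of interneuron precursors, led at 782 and 735 CPM, higher by 7.40 ± 0.24 (edgeR, adjusted p = 4.4e-13). Dlx1as and Sox1ot followed at 6.55 and 5.16. These 3 were named after their values were seen. Dlx1 was among the markers that named this class, so the rise of Dlx1as, its antisense gene, is not independent of the naming.

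In the other classes the same 52 genes gave fewer calls upward. Astrocyte-like cells had 21 higher and 5 lower, where 29.1% and 23.7% of all genes were, and endothelial-like cells had 8 and 17, where 26.5% and 19.7% were. Mural-like cells had 8 and 13 (22.9% and 18% of all genes), and macrophage-like cells 7 and 11 (17.9% and 15.7%). Astrocyte-like cells were thus the only one of these 4 classes with more calls upward. For the rest, the split moved with the scaling. It was 13 and 14 in OPC-like cells (25.7% and 23.0% of all genes) and 9 and 21 in microglia-like cells (34.1% and 22.5%). Oligodendrocyte-like cells had 12 and 16 (35.1% and 24%). Library sizes alone gave 22 and 5 in OPC-like cells, where 45.7% and 10.9% of all genes were called. They gave 6 and 29 in microglia-like cells (21.8% and 36.3%) and 7 and 30 in oligodendrocyte-like cells (21.1% and 39.0%).

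**Figure D5:**
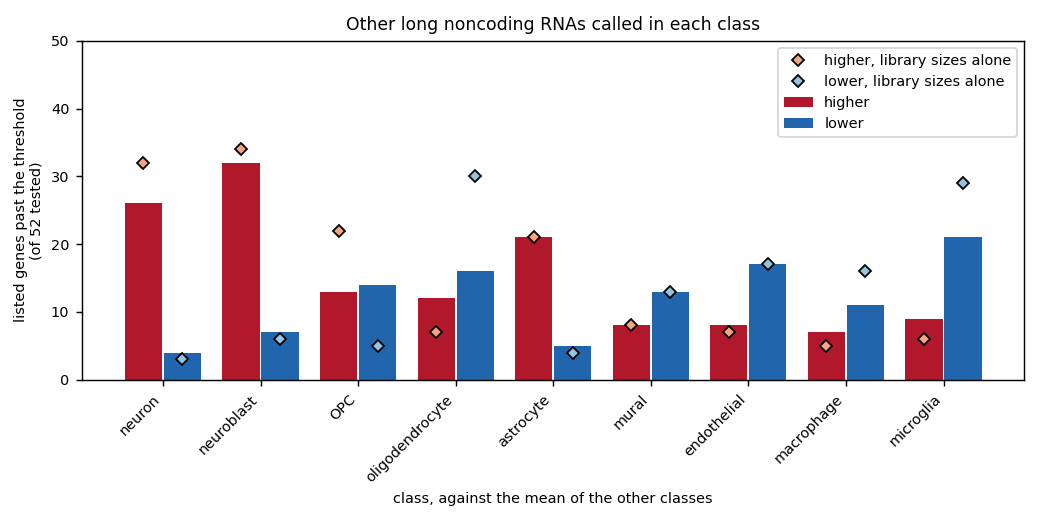
Number of the 52 tested other long noncoding RNAs (y axis) that were higher or lower in each class than the mean of the others at an adjusted p under 0.05 in edgeR; bars use TMM factors and diamonds library sizes alone. Neuron-like (26 higher, 4 lower) and neuroblast-like cells (32 and 7) lead upward under both scalings. In OPC-like cells 13 higher and 14 lower become 22 and 5, while the shares of all tested genes go from 25.7% and 23% to 45.7% and 10.9%.

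The genes around the 8 were counted from listed genes, again where 26.2% of all tested genes were higher in neuron-like cells and 29.3% lower. Unlike Mirg, these listed genes and the paraspeckle and splicing proteins below were not left out of the clustering, so they may have shaped the classes. In the Dlk1-Dio3 region, 3 of 5 tested genes were higher in neuron-like cells: Mirg, Dlk1 (4.50 ± 0.40), made from the paternal copy, and Begain (3.50 ± 0.26). Wars was lower (-0.59), a call lost with library sizes alone. In the Kcnq1 region, none of 6 tested genes was higher in neuron-like cells and 5 were lower (4 with library sizes alone), with 5 at an unadjusted p under 0.05. These include Tspan32, with no UMI in either neuron-like sum, for which no fold is given. Also among them were Cdkn1c (-3.13 ± 0.38), a cell cycle inhibitor, and Cd81 (-1.58 ± 0.10), where Kcnq1ot1 was highest. Of the same 6 genes, 3 were higher and 0 lower in OPC-like cells (25.7% and 23% of all tested genes), with Kcnq1ot1 at 412 and 385 CPM. Neuroblast-like cells had 2 higher and 1 lower (30.2% and 28.5%). Macrophage-like cells, lowest for Kcnq1ot1 at 85.0 and 74.9 CPM, had 1 higher and 3 lower (17.9% and 15.7%). In the remaining classes more were higher than lower with TMM factors. In those classes 22.9% to 35.1% of all tested genes were higher and 18% to 24% lower. Whether Kcnq1ot1 silenced the genes of its region was not tested. Of the 6 neighbours of Malat1 and Neat1, in neuron-like cells Ehbp1l1 was higher (1.06) and Slc25a45, Fam89b and Frmd8 were lower (-3.09, -1.84 and -1.70), unlike Malat1.

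Of 10 paraspeckle proteins, all 10 were higher in neuroblast-like cells under both scalings, where 30.2% of all tested genes were higher (34.8% with library sizes alone), among them Nono (1.87 ± 0.08) and Sfpq (1.58 ± 0.11), which bind Neat1. Neat1 itself was near its lowest there, at 13.8 and 10.9 CPM, and this class also held cycling cells. In macrophage-like cells, where Neat1 was highest, 0 of the 10 were higher and 1 lower (17.9% and 15.7% of all tested genes). In microglia-like cells 7 were higher and 0 lower (34.1% and 22.5% of all tested genes). Library sizes alone gave 0 and 4 in macrophage-like cells and 2 and 1 in microglia-like cells. In neuron-like cells, where 26.2% of all tested genes were higher and 29.3% lower, 1 was higher and 6 lower. Library sizes alone gave 3 higher and 4 lower there, against 33.5% and 18.99% of all tested genes. Of 13 speckle and splicing proteins, 10 were higher and 2 lower in neuroblast-like cells (28.5% of all tested genes were lower there), and 3 higher and 5 lower in neuron-like cells, which became 7 and 3 with library sizes alone. In neuron-like cells, the splicing regulator Celf4 was higher (3.86 ± 0.17) and Qk, known from glia, lower (-1.79 ± 0.20).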

How the data were processed

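Striatal cells were captured in 2 libraries (10x Chromium Single Cell 3'; the labels name kit versions v2 and v3 without saying which was used for which). The authors deposited UMI counts per gene and barcode, made with Cell Ranger 4.0 on mm10 per the labels; they are raw and not normalized. Barcodes with at least 300 genes and genes in more than 3 cells were kept, and doublets called by Scrublet in scanpy 1.11.5 (expected rate 6%) were removed, 115 and 152. Cells were integrated and clustered in Seurat 5.3.0 (2000 variable genes, 30 components, resolution 0.08). A cluster took a name when at least 3 markers of a class were raised at least 2-fold with 10 CPM added and 1 or more stood among its 50 leading genes. UMI counts were summed per library and class, and edgeR 4.0.16 (TMM factors, quasi-likelihood, class plus library, R 4.3.3) compared each class with the mean of the other 8. On simulated counts for 13915 genes in the neuron-like comparison, 75% of 4-fold and 11% of 2-fold changes were recovered, with 8 false calls. The simulation gave each gene 1 mean level in all classes and a fixed spread, with 200 genes changed. In the data 26.2% of tested genes were called higher in this comparison and 29.3% lower. The simulated rates are thus not error rates for these data. All classes of a library share its preparation, so the library (the replicate number) stayed in the model as a block.

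The 8 genes, the lists, the markers and the thresholds were chosen with earlier results of these data known. The genes named are the 8, for each the genes of most similar pattern, and the 5 other long noncoding RNAs of largest difference in each direction among those past the threshold and changed the same way in both libraries; lists give up to 4 genes. Thinning drew 1000 UMIs per cell and kept 5767 and 4740 cells. A count of 0 allows up to 3 counts; such limits cover counting error only. Alternatives were other scalings, filters, resolutions, DESeq2 1.42.0 and each library alone.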

Additional observations from a re-analysis of the deposited data

How the results depend on the processing

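Of the 8 genes, 6 were higher in neuron-like cells than in the mean of the other classes, and 6 or 7 over the alternatives that keep all 8. With either library left out the number was 7. Those values are plain differences of log2(CPM + 1), without the model or its TMM factors, so they change the scaling as well as the library. With Malat1 and Gm26917 taken out of the sums it was 5 of the other 6. Over the alternatives, the plain differences included, the log2 difference stayed within 5.82 to 7.18 for Meg3, 6.91 to 8.09 for Snhg11, 5.08 to 6.37 for Rian, 1.64 to 3.18 for Miat, 1.42 to 2.10 for Kcnq1ot1 and 0.90 to 1.44 for Malat1. Gm26917 changed sign from -0.16 to 0.15 with library sizes alone, 0.37 at resolution 0.32, 0.035 with at least 500 genes per cell and 0.12 with DESeq2. In the plain differences with either library left out, Gm26917 was at 0.12 to 0.20. Neat1 changed sign from -1.31 to 0.49 with cells under 20% mitochondrial UMIs, where the cells were clustered anew and the neuron-like cluster held 905 cells in place of 642. The causes were not tested. Scaling moved the median of all genes in this comparison from -0.16 to 0.15 with library sizes alone and to 0.10 with DESeq2.

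The mean over classes of the Malat1 share of UMIs was 3.80%, 4.82% after thinning to 1000 UMIs, and 3.37% to 4.23% with either library left out. The median over the 8 genes of the share of neuron-like cells with a UMI was 54.7%, 40.9% after thinning and 44.6% with cells under 20% mitochondrial UMIs. Other long noncoding RNAs higher in neuron-like cells numbered 26, and 20 to 32 over the alternatives. Those lower numbered 4, and 1 when the library was not a block (no replicate block), which left 25 higher. The list counts were not run with a library left out, since no residual degrees of freedom remain. Library sizes alone for the neuroblast-like counts and the smaller lists were chosen after seeing the data. Depth limits the low sums: no UMI of Miat or Rian was found in the 76 macrophage-like cells of library 2, which allows up to 3.95% of cells with a UMI, while the 94 of library 1 held 5 Miat and 3 Rian UMIs.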
